A study of Mus musculus with 4 samples.

Results

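Basophils and mast cells of mouse brain tumours were selected on the UMIs of a few marker genes in 4 single-cell RNA libraries made from immune cells of the tumours. A UMI, or unique molecular identifier, counts 1 captured RNA molecule. A cell entered the gate when it had 3 or more UMIs summed over Mcpt8, Cpa3, Fcer1a, Ms4a2 and Cd200r3, with at least 2 of these 5 genes seen. It also needed no UMI of the T cell gene Cd3e and at most 3 UMIs of the macrophage genes C1qa, C1qb and C1qc together. The gate held 79 of the 13569 cells kept, or 0.582%. The mice were C57BL/6, and all 4 libraries were made once the brain tumours gave symptoms. The tumours carried either mutant IDH1 (mIDH1, 2 libraries) or wild-type IDH1 (wtIDH1, 2 libraries). The labels give no further allele of the tumours, no sex or age, and no statement that the libraries of a genotype came from separate animals. The title of the series names the question behind the design, the effect of mutant IDH1 glioma cells on myeloid cells through the granulocyte growth factor G-CSF.

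Basophils and mast cells are rare granule-bearing cells that carry the high-affinity receptor for IgE on their surface. That receptor is built from Fcer1a, the chain that binds IgE, with Ms4a2 and Fcer1g, the chains that pass the signal on. When it is crosslinked the cells release histamine, proteases, lipid mediators and cytokines such as interleukin 4. Basophils mature in bone marrow, circulate in blood and enter tissue during inflammation. Mast cells mature in tissue under the growth factor that acts on the receptor Kit, and in the brain they are known from the meninges and from around vessels. In mice the protease Mcpt8 marks basophils, while Mcpt4, Cma1 and Tpsb2 are mast cell proteases and Cpa3 is known from both lineages.

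The 4 libraries held 20908476 to 29849183 UMIs over 3055 to 3767 kept cells. Gated cells numbered 46 and 25 in mIDH1 replicates 1 and 2, against 4 and 4 in wtIDH1 replicates 1 and 2. Their summed UMIs were 151849 and 97763 in the mIDH1 libraries, against 26527 and 10544 in the wtIDH1 libraries. A gated cell had 526 to 14204 UMIs, with library medians of 2753.5 to 4678.5. At the edge of the gate, 6 cells had exactly 3 UMIs of the gate genes and 2 had 4. Just outside it lay 1 cell with 2 UMIs over 2 genes and 13 cells with 3 or more UMIs that missed another condition. Of these 13, 9 had 1 gate gene only, 2 had too many C1q UMIs and 2 had a Cd3e UMI. No gated barcode was shared with another library.

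Marker genes of basophils and mast cells outside the gate were also high in gated cells. Summed over 5 basophil genes that the gate did not use, gated cells held 5025 and 2291 CPM (counts per 1000000 UMIs of the cells summed) in the mIDH1 libraries, and the other cells 91.5 and 95.1 CPM. The same genes summed to 2186 and 6070 CPM in the gated cells of the wtIDH1 libraries, against 76.4 and 47.7 CPM in the other cells there. Mast cell genes, 10 in number, summed to 16938 and 84879 CPM in gated cells of the mIDH1 libraries, against 28.0 and 22.7 CPM in their other cells. All 5 T cell markers were at 0 in the gated cells of every library, though Cd3e was at 0 by rule. Neutrophil markers summed to 843 and 471 CPM in gated cells, with 5 of 10 genes at 0 in each mIDH1 library, against 53196 and 122297 CPM in neutrophils. Macrophage markers summed to 586 and 235 CPM in gated cells, against 24087 and 23718 CPM in macrophages. Monocyte markers, 5 in number, summed to 342 and 1688 CPM in gated cells, against 1492 and 2684 CPM in all other cells. In the cells of mIDH1 replicate 2 that had no mast cell gene, monocyte markers reached 3691 CPM with 3 of 5 genes at 0, and their part in the results was not tested. Markers go together with the genes that chose the cells, so these levels describe the gate and do not test it.

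The upstream windows of the gate genes are shown because Gata2, a transcription factor needed by basophils and mast cells, was among the genes highest in the gate and is known to bind GATA letters in DNA. Each window is the 120 bases before the annotated start of a gene, read 5′ to 3′ on the gene's own strand from RefSeq (GRCm38.p6). Capitals mark the letters GATAA or, for a match on the other strand, TTATC. Of the 5 gate genes 4 had a match, and Mcpt8 had none. The windows lie at chr19:11623720-11623839, minus strand for Ms4a2, at chr1:173227230-173227349, minus strand for Fcer1a, at chr3:20242182-20242301, minus strand for Cpa3, at chr16:44943558-44943677, plus strand for Cd200r3 and at chr14:56085198-56085317, minus strand for Mcpt8.
Ms4a2: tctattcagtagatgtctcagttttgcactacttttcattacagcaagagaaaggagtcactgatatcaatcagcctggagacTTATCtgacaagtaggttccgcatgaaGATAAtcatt
Fcer1a: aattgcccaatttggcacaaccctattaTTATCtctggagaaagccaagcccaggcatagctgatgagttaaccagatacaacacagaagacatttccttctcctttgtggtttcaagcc
Cpa3: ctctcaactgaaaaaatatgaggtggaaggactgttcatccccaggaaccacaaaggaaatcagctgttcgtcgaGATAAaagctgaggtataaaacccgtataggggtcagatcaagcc
Cd200r3: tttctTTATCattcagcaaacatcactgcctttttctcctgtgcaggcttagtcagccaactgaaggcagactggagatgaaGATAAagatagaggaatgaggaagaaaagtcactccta
Mcpt8: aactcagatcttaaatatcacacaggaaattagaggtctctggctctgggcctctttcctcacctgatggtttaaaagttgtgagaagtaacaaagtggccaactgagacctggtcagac
The matches began 10 and 37 bases before the start in Ms4a2, 92 in Fcer1a, 45 in Cpa3, and 38 and 115 in Cd200r3. Over all RefSeq windows of this length, 3449 of 32851 (10.5%) held the letters on either strand. Of 19 gate, basophil and mast cell genes searched, 17 had a window and 8 of these held a match. The 9 without a match were Mcpt8, Hdc, Cyp11a1, Il4, Gata2, Cma1, Kit, Slc18a2 and Tph1. Mcpt2 and Tpsb2 had no window. A match describes letters in a window and shows no binding.

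A second set of windows is shown for some granule proteases of the results below, all of which held a match. The window of the chymase Cma1 held none and is not shown. Prss34 is a basophil protease of chromosome 17 (chr17:25298274-25298393, plus strand). Mcpt1 (chr14:56017844-56017963, plus strand) and Mcpt4 (chr14:56062311-56062430, minus strand) are mast cell chymases of the protease cluster on chromosome 14 that also holds Mcpt8, the basophil gene of the gate.
Prss34: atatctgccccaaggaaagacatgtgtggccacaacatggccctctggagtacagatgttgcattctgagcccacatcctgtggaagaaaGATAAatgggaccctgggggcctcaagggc
Mcpt1: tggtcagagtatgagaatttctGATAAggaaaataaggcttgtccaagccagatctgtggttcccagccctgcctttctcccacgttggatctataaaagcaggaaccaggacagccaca
Mcpt4: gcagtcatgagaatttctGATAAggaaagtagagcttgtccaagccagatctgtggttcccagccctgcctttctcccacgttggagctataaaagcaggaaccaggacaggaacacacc
With Mcpt1 shifted by 4 bases, 104 of 116 bases of the Mcpt1 and Mcpt4 windows were identical (89.7%), the GATAA match included. The Mcpt8 window had 38.7% identity with that of Mcpt4 and 35.3% with that of Mcpt1 at their best shifts. Mcpt1, Mcpt2, Mcpt4 and Cma1 are close relatives, as are Tpsb2 and Tpsab1, and reads of such pairs may have been split or lost in the authors' counting.

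Cells in the gate fell into a basophil set and a mast set with nothing in between. The mast set comprised the 17 cells with any UMI of Mcpt4, Cma1, Tpsb2 or the receptor Kit, and each of them had 17 to 582 such UMIs, with a median of 156. The other 62 cells had none and form the basophil set, and 53 of them had 1 to 95 UMIs of Mcpt8. The mast set numbered 4 and 12 cells in mIDH1 replicates 1 and 2, against 1 and 0 cells in wtIDH1 replicates 1 and 2. The basophil set numbered 42 and 13 cells in the mIDH1 libraries, against 3 and 4 cells in the wtIDH1 libraries. So mIDH1 replicate 1 was mostly basophils while mIDH1 replicate 2 held nearly as many mast cells as basophils. In the mast set, 5 cells also had Mcpt8, with 1, 1, 7, 11 and 37 UMIs. The 9 basophil-set cells without Mcpt8 all had Gata2, the histamine-forming enzyme Hdc, Cyp11a1 and Cd200r3, with 2 to 35 UMIs of Hdc and 2 to 19 of Gata2. A basophil-set cell of mIDH1 replicate 1 had 1 UMI of Mcpt8 and 2 of Cd200r3, but none of Hdc, Gata2 or Cyp11a1. It had 14 UMIs of the neutrophil gene S100a8 and 13 of S100a9, so its markers do not make it a basophil.

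**Figure D1:**
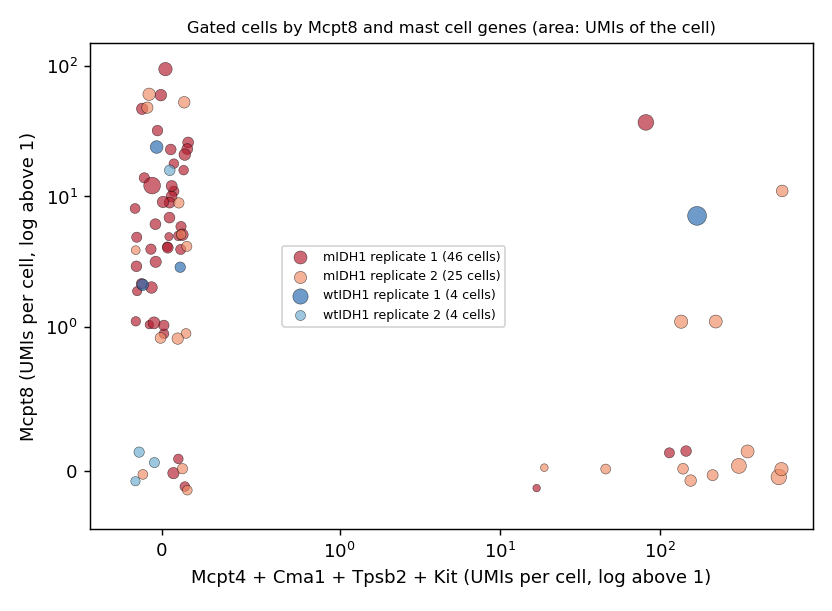
Mcpt8 UMIs (y axis) against summed UMIs of Mcpt4, Cma1, Tpsb2 and Kit (x axis) in each of the 79 gated cells, on scales that are linear to 1 and logarithmic above, with small random shifts that keep points apart. Point area follows the UMIs of the cell; the 17 cells on the right have 17 to 582 UMIs of the mast cell genes, and the 62 on the left have none.

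Gated cells made up a larger share of the mIDH1 libraries than of the wtIDH1 libraries. They were 1.22% of kept cells in mIDH1 replicate 1 (95% Wilson interval 0.917 to 1.62%) and 0.692% in mIDH1 replicate 2 (0.469 to 1.02%). In wtIDH1 replicates 1 and 2 they were 0.128% (0.0496 to 0.328%) and 0.131% (0.0509 to 0.336%). The groups did not overlap, and the mean was 0.957 ± 0.374% in mIDH1 and 0.129 ± 0.00239% in wtIDH1 (SD, n = 2 each), a ratio of 7.40. The exact two-sided permutation p was 0.333, the smallest that 2 libraries against 2 allow. These cells were proposed for study with their share already known, so the values describe the difference and do not test it. Leaving out 1 library at a time gave ratios of 5.36 to 9.45. Neutrophils numbered 746 and 1522 in the mIDH1 libraries and 65 and 100 in the wtIDH1 libraries. Of the cells outside the neutrophil gate, the gated cells were 1.52 and 1.20% in mIDH1 and 0.130 and 0.135% in wtIDH1. Intervals cover counting error only, and the part that dissection or sorting has in these shares was not tested.

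Both sets took part in that difference, to unequal extents in the 2 mIDH1 libraries. The basophil set was 1.11 and 0.360% of kept cells in mIDH1 replicates 1 and 2, against 0.0957 and 0.131% in wtIDH1 replicates 1 and 2. The mast set was 0.106 and 0.332% in the mIDH1 libraries, against 0.0319 and 0% in the wtIDH1 libraries. In wtIDH1 replicate 2, 0 of 3055 cells were in the mast set, which allows a share of up to 0.0982% by 3 counts of the total, and of up to 0.126% by the Wilson interval. That interval reaches past the 0.106% of mIDH1 replicate 1. Removing the cells with the highest Scrublet doublet scores took 2, 0, 1 and 3 gated cells out of mIDH1 replicates 1 and 2 and wtIDH1 replicates 1 and 2. It left 1 gated cell in wtIDH1 replicate 2 and a ratio of 14.6 between genotypes.

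**Figure D2:**
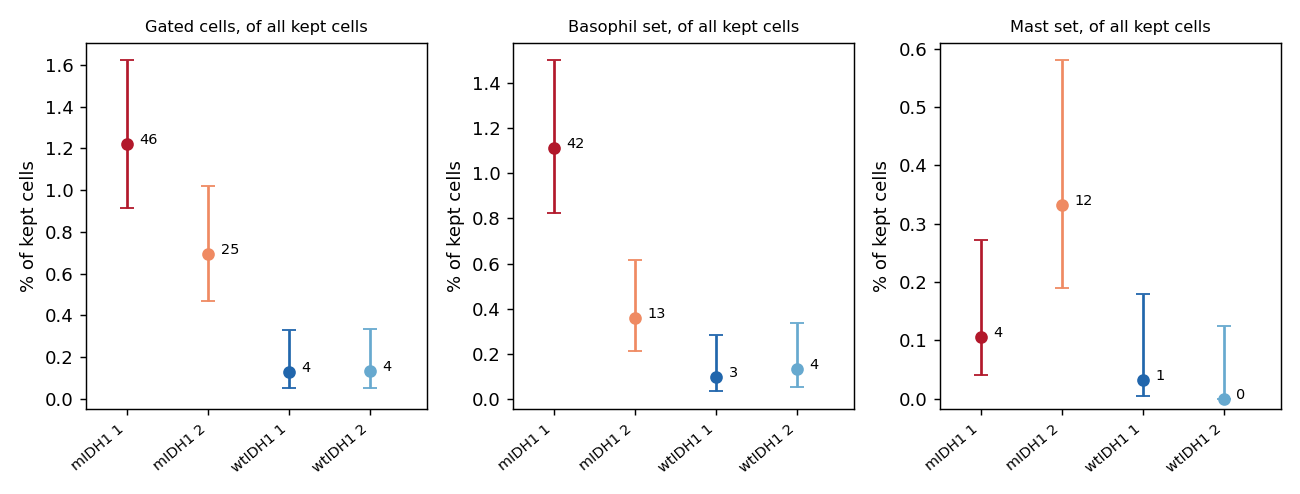
Share of kept cells (y axis, %) in the gate, the basophil set and the mast set for each library, with 95% Wilson intervals as bars and the number of cells beside each point. Gated cells are 1.22 and 0.692% in mIDH1 libraries and 0.128 and 0.131% in wtIDH1 libraries.

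Genes were compared between the gated cells and all other kept cells of the mIDH1 libraries, the libraries with enough gated cells. UMIs were summed per library and tested in edgeR with the library as a block, and the 9 genes of the gate were left out. Of 12292 genes tested, 236 were higher and 276 lower in gated cells, 4.17% in all (1.92% higher, 2.25% lower), at an adjusted p under 0.05, and the median log2 fold change of all genes was -0.63. DESeq2, run as an alternative, called 200 higher and 125 lower. Positive values mean higher in gated cells. The 2 libraries leave 1 residual degree of freedom, so these p-values lean on the variance that edgeR models across genes and measure the spread between 2 libraries. Genes that accompany the gate genes had to differ, so the counts describe the chosen cells. Each count of listed genes below, for gated cells against all other cells, is to be read beside these shares of 1.92% higher and 2.25% lower. Scaling to library totals alone moved the median of all genes by -0.16, to -0.80.

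The granule proteases stood farthest apart. Of 13 proteases listed, 8 passed the filter on low counts and all 8 were higher. Genes near 0 in the other cells, such as Prss34 and Mcpt4, passed that filter through the gated cells and had to differ, so this count supports nothing. Mcpt4 had 586 and 9052 CPM in gated cells of mIDH1 replicates 1 and 2, against 0.144 and 1.21 CPM in the other cells (log2 fold change 12.58 ± 1.10, SE, adjusted p 3.93e-27). The tryptase Tpsb2 had 849.5 and 8285 CPM against 0.180 and 1.72 CPM, and the chymase Cma1 810.0 and 15977 CPM against 5.41 and 5.66 CPM. These mast cell proteases were higher in replicate 2, the library with 12 of the 16 mast set cells of mIDH1 tumours. Prss34, the basophil protease, had 329 and 460.3 CPM in gated cells, against 0.108 and 0 CPM in the others, where 3 UMIs were seen in all. Mrgprb1, of a receptor family that mast cells use for peptides, had 72.4 and 256 CPM in gated cells and no UMI in the others, at least 2284-fold higher when 3 counts over the other cells are taken as the limit. The granzyme Gzmb, known from killer lymphocytes, was also higher (882 and 542 CPM against 214 and 153 CPM, log2 fold change 2.08 ± 0.61, adjusted p 0.0192).

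Type 2 cytokines and growth factors were among the highest genes. Of 19 cytokines tested 7 were higher and none lower, beside 1.92% of all genes higher, with a median log2 fold change of 0.47. Il4 and Il13, near 0 in the other cells, passed the filter on low counts through the gated cells and had to differ. Il4, the cytokine that turns T cells and macrophages to type 2 responses, had 1909.8 and 389 CPM in gated cells, against 5.45 and 0 CPM in the other cells (log2 fold change 10.03 ± 0.88, adjusted p 1.32e-26). Il6, an inflammatory cytokine, had 2009 and 338 CPM against 13 and 8.89 CPM (log2 fold change 6.45 ± 0.77, adjusted p 2.63e-14). Every gated value of these genes lay above both values of the other cells, with replicate 1, the library richer in basophils, above replicate 2. Hgf, a growth factor for epithelium and vessels, had 1528 and 471 CPM in gated cells, against 13.2 and 5.96 CPM in the others (log2 fold change 6.73 ± 0.75, adjusted p 1.8e-16). Il13, which shares receptors with Il4, had 98.8 and 40.9 CPM against 0.253 and 0.152 CPM on 15 and 4 UMIs. The Il6 family members Lif (3.91) and Osm (2.94), and the macrophage growth factor Csf1 (2.57) were higher on the log2 scale, with adjusted p of 4.07e-07, 0.00232 and 0.00418. Vegfa, an angiogenic factor, had 296 and 30.7 CPM in gated cells and 191 and 205 CPM in the others (log2 fold change -0.45, adjusted p 0.915), and the groups overlapped.

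Chemokines moved both ways. Of 15 tested, 3 were higher and 5 lower, with a median of -1.55, or -1.28 with the 3 genes at 0 in gated cells set to their bounds. Ccl3, an inflammatory chemokine, had 14205 and 5166 CPM in gated cells, against 895 and 1512 CPM in the other cells (log2 fold change 3.02 ± 0.85, adjusted p 0.013). Ccl6 and Ccl9, chemokines of myeloid cells, had log2 fold changes of 2.62 and 2.83 (adjusted p 0.0243 and 0.00466). Ccl4, the close relative of Ccl3, had 17359 and 4715 CPM against 1323 and 2615 CPM and did not pass the test (log2 fold change 2.42, adjusted p 0.116). The lower chemokines were Ccl5, Cxcl10, Ccl12, Ccl22 and Cxcl3, with log2 fold changes of -5.36 for Ccl5 and -5.57 for Cxcl10.

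Receptors for interleukins 3, 18 and 33 were higher in gated cells, and the receptor for G-CSF was lower. Of 23 cytokine receptors tested 7 were higher and 5 lower (median -0.56). Il1rl1, the receptor for the alarmin interleukin 33, had 533 and 726 CPM in gated cells, against 8.70 and 3.64 CPM in the other cells (log2 fold change 6.91 ± 0.73, adjusted p 3.83e-18). Kit had 125 and 573 CPM against 9.49 and 8.64 CPM (log2 fold change 5.07, adjusted p 2.3e-11). Its UMIs in gated cells all lay in the mast set by the rule of the split. Il18r1 and Il18rap, the chains of the interleukin 18 receptor, were higher by 2.51 and 2.79 on the log2 scale (adjusted p 0.00173 and 0.000814). Il3ra, the receptor chain for the basophil growth factor interleukin 3, had 151 and 81.8 CPM in gated cells and 26.6 and 17.5 CPM in the others (2.55 ± 0.64, adjusted p 0.0034). Its signalling partners Csf2rb and Csf2rb2 had log2 fold changes of 2.16 and 3.17 (adjusted p 0.0454 and 7.46e-05), and reads of this pair may be shared. In a fit over all 4 libraries without mIDH1 replicate 1, Il3ra, Csf2rb and Csf2rb2 missed the threshold, with log2 fold changes of 1.69, 0.73 and 1.67 and adjusted p of 0.189, 0.607 and 0.128. Csf2rb also missed it with any other library left out, without the filter on low counts, with gate sums of 5 and 10, with at most 5% mitochondrial UMIs and without the highest doublet scores (adjusted p 0.0563 to 0.179). Csf3r, the receptor for G-CSF, had 6.59 and 0 CPM in gated cells, against 187 and 315 CPM in the others (log2 fold change -5.74 ± 1.03, adjusted p 4.49e-06), and the 6.59 CPM were 1 UMI.

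Of the IgE receptor, the chains Fcer1a and Ms4a2 chose the cells and were not tested. Fcer1a had 211 and 2015 CPM in gated cells of mIDH1 replicates 1 and 2, against 0.361 and 0.152 CPM in the others, and Ms4a2 283 and 439.8 CPM against 0.216 and 0.0505 CPM. Fcer1g, the chain that myeloid and NK cells also use, had 2312 and 3396 CPM against 1453 and 2148 CPM and did not pass the test (log2 fold change 0.80, adjusted p 0.793). Of 18 genes of the receptor and its signalling tested, the adaptors Lat2 and Lat and the kinase Btk were higher and none lower (median 0.37). Lat2 had 731 and 583 CPM in gated cells, against 56.8 and 44.2 CPM in the others (log2 fold change 3.84 ± 0.64, adjusted p 3.57e-07). Inhibitory receptors moved both ways. Cd200r1 and Cd200r4, relatives of the gate gene Cd200r3, were higher by 3.33 and 3.16 on the log2 scale, together with Lilrb4a and Lilr4b, while Cd300lf was lower (-2.60), 5 of 14 tested.

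Histamine and lipid mediator genes were higher in 6 of 13 cases and lower in none (median 1.60). Slc18a2 and Cyp11a1, near 0 in the other cells, passed the filter on low counts through the gated cells and had to differ. Hdc, the enzyme that makes histamine, had 10135 and 3999 CPM in gated cells, against 176 and 475 CPM in the others (log2 fold change 4.60 ± 0.87, adjusted p 1.65e-05). Slc18a2, the carrier that loads amines into granules, had 296 and 276 CPM against 0.433 and 0.202 CPM (9.95 ± 0.81, adjusted p 1.38e-30). Cyp11a1, the enzyme that starts steroid synthesis from cholesterol, had 1739 and 1084 CPM against 2.38 and 0.0505 CPM (11.13 ± 0.93, adjusted p 1.29e-29). Alox5 and Alox5ap, which begin leukotriene synthesis, were higher by 5.51 and 2.63 on the log2 scale, and the prostaglandin D synthase Hpgds by 2.65. Tph1, the enzyme of serotonin synthesis, had 112 and 450.1 CPM in gated cells, against 0.144 and 0.152 CPM in the others. In the granule and secretion list, 3 of 16 genes were higher, namely Rab27b and Ndst2, which serve granule release and heparin synthesis, and the granule membrane protein Cd63.

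Among transcription factors of the lineage, 5 of 21 were higher and Irf8 was lower (median 0.51). Gata2, near 0 in the other cells, passed the filter on low counts through the gated cells and had to differ. Gata2 had 1976 and 931 CPM in gated cells, against 3.50 and 0.202 CPM in the others (log2 fold change 10.47 ± 0.90, adjusted p 1.19e-27). Tal1, which works with GATA factors in blood formation, was higher by 5.11, Cebpa by 2.64 and Egr1 by 3.23 on the log2 scale. Irf8, a factor of monocytes and dendritic cells, had 46.1 and 0 CPM in gated cells, against 337 and 254 CPM in the others (-3.49 ± 0.76, adjusted p 0.000363). Of 17 immediate early genes, which cells switch on within minutes of a stimulus and also during tissue dissociation, 5 were higher and none lower (median 1.63). Egr3 had 1099.8 and 767 CPM against 32.4 and 24.6 CPM (5.16 ± 0.69, adjusted p 2.86e-11) and Fosb 1106 and 491 CPM against 107 and 76.9 CPM. The part of cell handling in these levels was not tested. In the adhesion list, 4 of 22 genes were higher. These were the integrin chains Itga2b (8.23), Itga2 (3.72) and Itgb7, and the activation antigen Cd69 (4.17).

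Genes of antigen presentation and of phagocytes were lower. Of 11 MHC class II genes 6 were lower and none higher, with a median of -3.28, or -3.22 with the 2 genes at 0 in gated cells set to their bounds. Cd74, the invariant chain, had 362 and 113 CPM in gated cells, against 2359 and 2205 CPM in the others (-3.28 ± 0.72, adjusted p 0.000395). Of 12 genes of Fc gamma receptors and the phagocyte oxidase 5 were lower (median -1.96). Arg1, the arginine-degrading enzyme of suppressive myeloid cells, had 178 and 348 CPM in gated cells, against 2915 and 2223 CPM in the others (-3.21 ± 0.71, adjusted p 0.000441), and it was 1 of 3 lower genes of the 14 suppressive mediators tested, with Entpd1 and Nos2. The checkpoint ligand Cd274 (-1.10, adjusted p 0.545), the leukocyte antigen Ptprc (-1.38, adjusted p 0.321) and Idh1 (-2.18, adjusted p 0.277) did not pass the test. Of 10 IDH and 2-hydroxyglutarate enzymes none passed it (median 0.14). The 10 lower genes farthest from 0 were absent from gated cells of both libraries. They were Wfdc21, Tm4sf1, Pmepa1, Hbb-bt, Trbc2, Ccl12, Ngp, Cd3g, Apod and Cd3d, from at least 10.7-fold (Cd3d) to at least 18.4-fold (Wfdc21) lower, with 3 counts over the gated cells as the limit. Trbc2, Cd3g and Cd3d are T cell genes that accompany Cd3e, which the gate required to be at 0, so their low levels follow from the rule. Apod missed the threshold in DESeq2 (adjusted p 0.278), without the library block (0.290) and without mIDH1 replicate 1 (0.589), and Hbb-bt (0.211) and Ngp (0.0657) missed it without mIDH1 replicate 2.

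**Figure D3:**
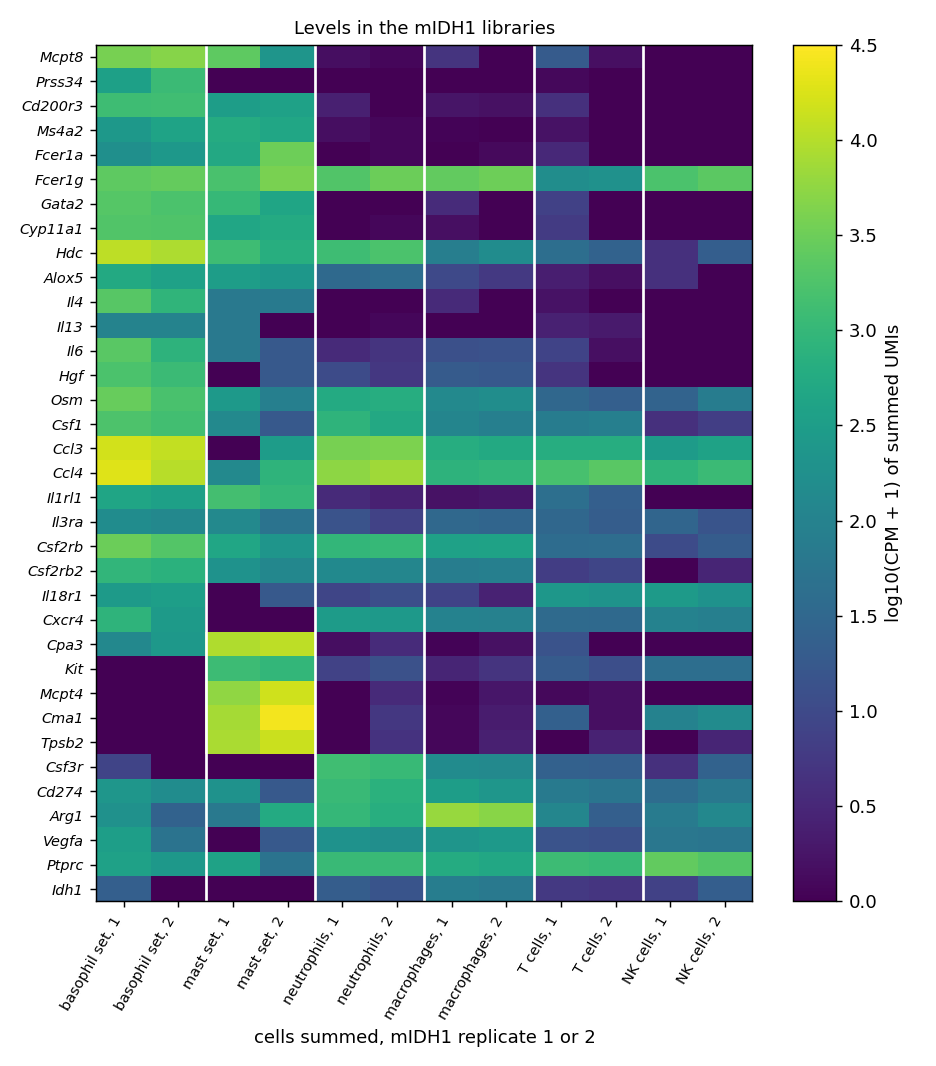
Levels of 35 genes (rows) in summed cells of mIDH1 replicates 1 and 2 (columns), as log10(CPM + 1) on the colour scale. The basophil and mast sets are on the left, and neutrophils, macrophages, T cells and NK cells follow. Il4, Gata2 and Cyp11a1 stand out in the first 4 columns, while Ccl3, Osm and Csf1 are also seen in neutrophils.

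Split into its sets, the gate held different profiles. The 55 basophil-set cells of the mIDH1 libraries differed from all other cells in 591 of 12228 genes (4.83%), 278 higher (2.27%) and 313 lower (2.56%). The 16 mast set cells differed in 268 of 12210 genes (2.19%), 59 higher (0.483%) and 209 lower (1.71%). The median log2 fold change over all genes was -1.08 in the basophil set and -2.29 in the mast set, so values below 0 in the mast set are to be read beside a shift of all genes. The split genes themselves were left out of both fits. The values that follow for the sets are given side by side without a test between them, because the split chose the cells.

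Most cytokines of the gate, and the chemokines Ccl3, Ccl6 and Ccl9, had their higher levels in the basophil set. Ccl3 had 15821 and 12395 CPM in the basophil set of mIDH1 replicates 1 and 2, and 0 and 308 CPM in the mast set. Against all other cells it was higher in the basophil set (log2 fold change 3.50 ± 1.02, adjusted p 0.0183) and lower in the mast set (-3.09 ± 0.66, adjusted p 0.0004). Ccl6 had 11647 and 17256 CPM in the basophil set and 0 and 376 CPM in the mast set, and Ccl9 5750.3 and 2774 CPM and 0 and 103 CPM. Il4 had 2119.7 and 865 CPM in the basophil set and 64.5 and 68.4 CPM in the mast set, where its excess over the other cells did not pass the test (adjusted p 0.13). Il6 had 2229.7 and 814 CPM in the basophil set and 64.5 and 17.1 CPM in the mast set. Hgf had 1702 and 1145 CPM and 0 and 17.1 CPM, and Csf1 1760.3 and 1374 CPM and 129 and 17.1 CPM. Of the cytokines tested, 7 of 19 were higher in the basophil set than in all other cells, beside 2.27% of all genes. Il4 and Il13, among the 7, passed the filter on low counts through the gated cells. In the mast set 0 of 18 were higher and 2 lower, beside 0.483 and 1.71% of all genes. The 0 lies near that share and is no result about cytokines.

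Hdc and several immediate early genes also had higher levels in the basophil set. Hdc had 11141 and 8959 CPM in the basophil set of mIDH1 replicates 1 and 2, and 1289.6 and 667 CPM in the mast set, and in the mast set it did not pass the test against other cells (log2 fold change 1.25, adjusted p 0.475). Egr1 had 4701 and 5167 CPM in the basophil set and 451 and 342 CPM in the mast set. Of 17 immediate early genes 10 were higher in the basophil set than in all other cells, beside 2.27% of all genes. In the mast set 0 were higher and 2 lower, beside 0.483 and 1.71% of all genes, so the 0 lies near that share. Il18rap had 843 and 687 CPM and Cxcr4, the receptor for a chemokine of marrow and vessels, 843 and 280.0 CPM in the basophil set, and both were at 0 in the mast set. In the basophil set Cxcr4 was higher than in other cells (2.31 ± 0.62, adjusted p 0.00743), which the whole gate did not reach (1.80, adjusted p 0.138).

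Mast set cells had a profile of their own beyond the proteases. In mIDH1 replicate 1, though, 9216 of the 15509 UMIs of the mast set came from 1 cell, which also had 37 UMIs of Mcpt8. The values of that library lean on this cell. Of Tph1 it had 4 UMIs, and the other mast set cells of the library had 1, 9 and 3. Ccl2 and Ccl7, attractants of monocytes, had 1547 and 3985 CPM and 580.3 and 1642 CPM in the mast set of mIDH1 replicates 1 and 2, against 29.3 and 0 CPM and 0 and 0 CPM in the basophil set. Ccl2 was higher in the mast set than in all other cells (1.76 ± 0.52, adjusted p 0.0399) and lower in the basophil set (-4.63 ± 0.81, adjusted p 1.86e-06). Ctla2a, an inhibitor of cathepsins, had 1741 and 4156 CPM in the mast set and 14.7 and 0 CPM in the basophil set. Hpgds had 580.3 and 222 CPM in the mast set and 0 and 0 CPM in the basophil set, and Tph1 1096 and 752 CPM and 0 and 0 CPM. Il1rl1 had 1419 and 975 CPM in the mast set and 433 and 356 CPM in the basophil set, and passed the test against other cells in each (adjusted p 6.49e-23 and 4.31e-19). Kit and the progenitor marker Cd34 were seen in the mast set, while all 6 stem and progenitor markers were at 0 in the basophil set, Kit by the rule of the split. Of 20 hypoxia and glycolysis genes 9 were lower in the mast set than in all other cells, beside 1.71% of all genes. In the basophil set 2 were lower, beside 2.56% of all genes. The median log2 fold change of the 20 genes was -2.98 in the mast set and -0.91 in the basophil set, beside -2.29 and -1.08 over all genes.

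**Figure D4:**
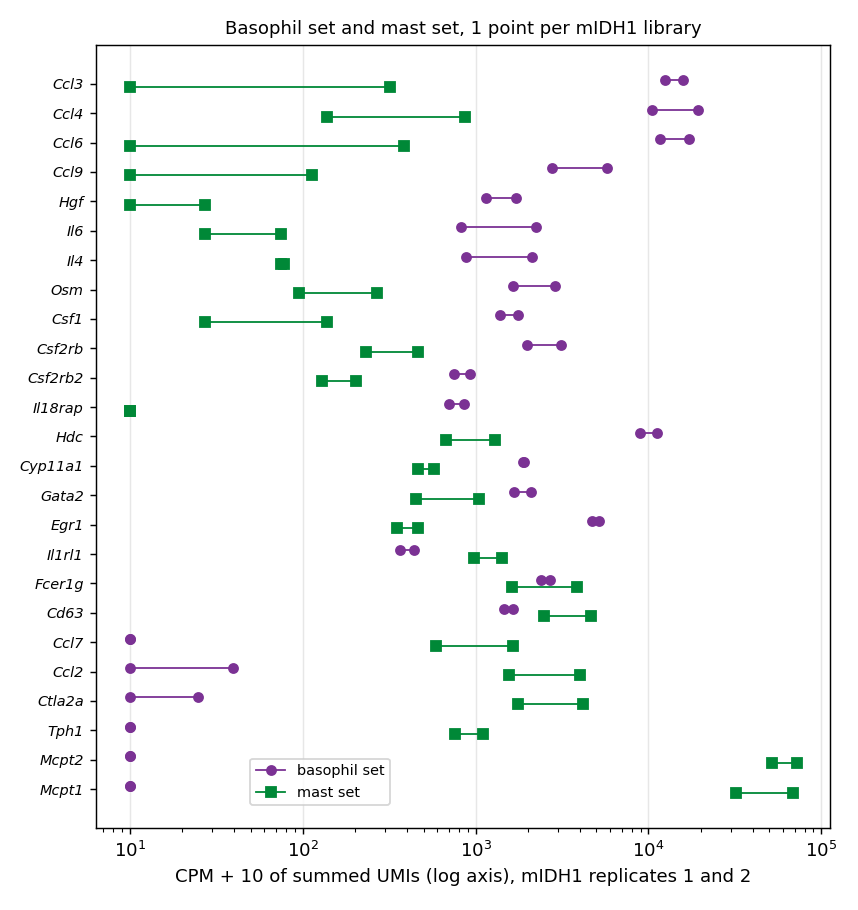
Levels of 25 genes in the basophil set (circles) and the mast set (squares), 1 point for each mIDH1 library joined by a line, as CPM + 10 on a log axis, so that a value of 10 is a level of 0. Genes above Il1rl1 lie higher in the basophil set in both libraries, from Ccl3 with 15821 and 12395 CPM against 0 and 308 CPM, and genes from Cd63 down lie lower.

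Within the basophil set some genes were shared by nearly all cells and others were carried by a few. Ccl3 was seen in all 62 cells, with 1 to 288 UMIs and a median of 37.5. The membrane protein Ifitm1 was also seen in all 62 (2 to 118 UMIs), Hdc in 61 (median 23), Cyp11a1 in 61, Hgf in 58 and Gata2 in 55. For comparison, 5.50 and 6.25% of T cells, which lack histamine synthesis, had a UMI of Hdc in mIDH1 replicates 1 and 2, at medians of 5989 and 5458.5 UMIs a cell. Ccl3 was seen in 34.7 and 32.4% of those T cells and Ifitm1 in 55.8 and 40.6%, so that a UMI of either is common outside the set. Neutrophils had a UMI of Hdc in 71.0 and 85.8% of cells, at medians of 2076.5 and 2371 UMIs. Il4 was seen in 32 of 62 cells, but the 5 cells with most of it held 69.9% of its 359 UMIs. With 20 UMIs as a line chosen after the values were seen, 7 cells had 22 to 69 UMIs of Il4 and the other 55 had 0 to 8. Those 7 cells came from mIDH1 replicate 1 (5), mIDH1 replicate 2 (1) and wtIDH1 replicate 2 (1), with median UMIs of 3372, against 2917 in the other 55. Their medians were 12 UMIs of Il6 and 89 of Ccl3, against 2 and 33 in the other cells. Prss34 was seen in 16 cells and Gzmb in 15, and the top 5 cells held 86.0% and 83.0% of their UMIs.

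Across the 42 basophil-set cells of mIDH1 replicate 1, per UMI of the cell, Il6 and Ccl3 varied together with a Spearman rho of 0.723. For Il4 the rho was 0.466 with Ccl3 and 0.377 with Il6. Mcpt8 varied little with Il4 (rho 0.0512) or Hdc (rho 0.0278). These cells share 1 library, and the values are given as a description.

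Mast set cells differed from each other in their proteases. Mcpt2 was seen in all 17 cells with 4 to 1168 UMIs and Cma1 in all 17 with 3 to 356. Mcpt1, which with Mcpt2 is known from mucosal mast cells, ranged from 0 to 1687 UMIs, and Mcpt4, known from connective tissue mast cells, from 0 to 234. Most cells had both. In mIDH1 replicate 2, 2 cells of 4077 and 8227 UMIs had no Mcpt1 and 4 and 12 UMIs of Mcpt2, beside 70 and 211 of Cma1. At the other end, a cell of mIDH1 replicate 1 with 9216 UMIs had 965 UMIs of Mcpt1 and 915 of Mcpt2 but 7 of Mcpt4 and none of Tpsb2, and it also had 37 of Mcpt8. The only mast set cell of the wtIDH1 libraries had 14204 UMIs, the most of any gated cell, with 1687 of Mcpt1, 1168 of Mcpt2 and 1 of Mcpt4. Both cells had 51 UMIs of Ifitm1, which 12 of the 17 mast set cells lacked. Whether either droplet held more than 1 cell was not tested.

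**Figure D5:**
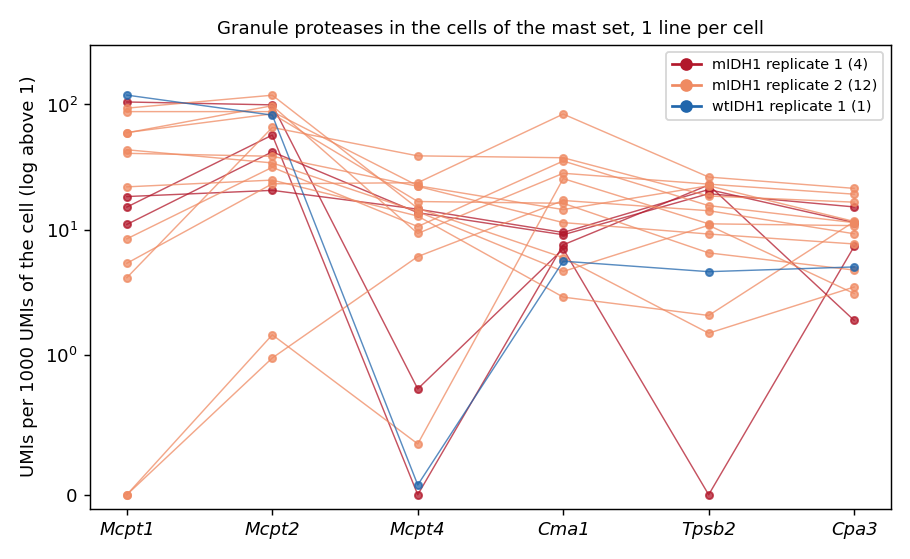
UMIs per 1000 UMIs of the cell (y axis, linear to 1 and logarithmic above) of 6 granule proteases in the 17 mast set cells, 1 line per cell, coloured by library. Of the cells, 15 have Mcpt1 and 2 of mIDH1 replicate 2 lie at 0, while Mcpt4 is near 0 in cells of mIDH1 replicates 1 and 2 and wtIDH1 replicate 1.

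Neutrophils, the other granulocytes and a large class of the mIDH1 libraries, were the nearer comparison. Gated cells differed from them in 843 of 7251 genes tested (11.6%), 357 higher and 486 lower (4.92% and 6.7%), with a median log2 fold change of -0.11. Genes of the basophil and mast cell lineages kept their distance. Those at or near 0 in neutrophils, such as Gata2, Il4 and Il6, passed the filter on low counts through the gated cells and had to differ. Gata2 had 1976 and 931 CPM in gated cells of mIDH1 replicates 1 and 2 and no UMI in neutrophils, at least 3459-fold higher, and Il4 at least 2901-fold, with 3 counts over the neutrophils as the limit. Il6 had 2009 and 338 CPM in gated cells, against 2.40 and 3.74 CPM in neutrophils (log2 fold change 7.77 ± 0.89, adjusted p 7.25e-16). Hgf (6.86), Lif (4.20), Il1rl1 (8.15), Il18r1 (4.19), Il3ra (3.41), Alox5 (3.29) and Ccl9 (3.63) were also higher, on the log2 scale.

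Several mediators that set gated cells apart from all other cells did not pass the test against neutrophils. Hdc had 10135 and 3999 CPM in gated cells, against 1269.8 and 1677 CPM in neutrophils (log2 fold change 1.97 ± 0.85, adjusted p 0.129). Ccl3 had 14205 and 5166 CPM in gated cells, against 3841 and 4091 CPM in neutrophils (0.95 ± 0.89, adjusted p 0.618), and both gated values lay above both neutrophil values. Osm (1.02, adjusted p 0.458), Csf1 (0.36, adjusted p 0.852), Csf2rb (0.55, adjusted p 0.766) and Cxcr4 (0.06, adjusted p 0.977) did not pass the test either. A miss does not show equal levels. The basophil set alone differed from neutrophils in 872 of 6828 genes (12.8%), 358 higher (5.24%) and 514 lower (7.53%). There Hdc passed the test (2.45 ± 0.77, adjusted p 0.0170), with 11141 and 8959 CPM in the basophil set against 1269.8 and 1677 CPM in neutrophils, while Ccl3, Osm, Csf1, Csf2rb and Cxcr4 missed it again (adjusted p 0.0765 to 0.580).

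Interferon-stimulated genes were lower than in neutrophils. Each count of listed genes in this paragraph is to be read beside the 6.7% of all genes lower and 4.92% higher than in neutrophils. Of 16 tested 8 were lower and none higher, with a median of -1.95. Rsad2, an antiviral enzyme, had 92.2 and 71.6 CPM in gated cells, against 2162 and 1025 CPM in neutrophils (-4.37 ± 0.80, adjusted p 1.95e-06). Of 20 hypoxia and glycolysis genes 6 were lower (median -1.23), and Cd274 was lower (-2.90 ± 0.72, adjusted p 0.00108). Of 14 survival genes 6 were lower, among them Mcl1, Bcl2l1 and Bcl2a1b, and 3 higher, namely Bcl2, Pim2 and Socs2. The interleukins Il1a, Il1b and Il18 were lower, 3 of 15 cytokines tested, beside 5 that were higher. Of those 5, Il4, Il6 and Il13 were at or near 0 in neutrophils and passed the filter on low counts through the gated cells. The 10 named genes lower than in neutrophils, from Wfdc21 to Sirpb1c, had no UMI in gated cells. Wfdc21 was at least 111-fold lower, and DESeq2, run as an alternative, called none of the 10 (adjusted p 0.141 for Wfdc21 and 0.404 for Sirpb1c).

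Although rare, gated cells held much of some transcripts in the tumour libraries. In mIDH1 replicate 1, 290 of the 441 Il4 UMIs of all kept cells (65.8%, Wilson interval 61.2 to 70.0%) lay in gated cells, and in mIDH1 replicate 2 all 38 (interval 90.8 to 100%). In wtIDH1 replicates 1 and 2, 3 of 4 and 35 of 45 Il4 UMIs did. In mIDH1 replicate 1, 10 cells just outside the gate held a further 146 of the 441 Il4 UMIs, 93 of 397 of Gata2, 49 of 330 of Cyp11a1, 148 of 665 of Il6 and 106 of 599 of Hgf. With these cells left out of the other cells, an alternative added after the values were seen, all 512 genes above were called again, and the log2 fold change was 13.80 for Il4 and 13.07 for Gata2. For Gata2 the gated share was 75.6 and 95.8% in the mIDH1 libraries and 77.9 and 82.5% in the wtIDH1 libraries. For Cyp11a1 it was 80.0 and 99.1% in mIDH1 and 69.0 and 84.6% in wtIDH1. Hgf had 38.7 and 28.0% of its UMIs in gated cells of the mIDH1 libraries, against 5.65 and 5.12% in the wtIDH1 libraries. Il6 had 45.9 and 15.8% in mIDH1 and 2.48 and 2.21% in wtIDH1. These shares were not tested between genotypes. Hdc and Ccl3, which neutrophils also express, had 24.0 and 3.99% and 8.0 and 1.66% in the mIDH1 libraries.

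The wtIDH1 libraries held 4 gated cells each, and their levels are given with exact Poisson intervals, which cover counting error only. Gata2 had 3976 CPM (49 UMIs, exact Poisson interval 2942 to 5257 CPM) in the basophil set of wtIDH1 replicate 1. In wtIDH1 replicate 2 it had 3129.7 CPM (33 UMIs, exact Poisson interval 2154 to 4395 CPM), and in the basophil set of mIDH1 replicates 1 and 2 it had 2083 and 1654 CPM. Ccl3 had 15821 and 12395 CPM in the basophil set of the mIDH1 libraries, against 6167 and 15269 CPM in wtIDH1 replicates 1 and 2. For Hgf the basophil set had 1702 and 1145 CPM in mIDH1 and 1704 and 1612 CPM in wtIDH1, and for Csf1 1760.3 and 1374 CPM in mIDH1 and 2353 and 1423 CPM in wtIDH1. The mIDH1 and wtIDH1 values of Hgf and Csf1 overlapped. They did not overlap for Mcpt8, a gate gene (3799 and 4759 CPM in mIDH1, 2353 and 1517 CPM in wtIDH1). Nor did they for Hdc (11141 and 8959 CPM in mIDH1, 2921 and 5690 CPM in wtIDH1) or Fcer1g (2391 and 2698 CPM in mIDH1, 1055 and 1138 CPM in wtIDH1). The Gata2 values above did not overlap either, and were lower in mIDH1. Il6, Csf2rb, Gzmb and Ifitm1 were among other genes without overlap, all higher in mIDH1. With 2 libraries against 2 the smallest exact permutation p is 0.333, and the share of all genes without overlap was not counted. A lack of overlap is therefore no result about the genes named. In wtIDH1 replicate 2, 1 cell held all 16 Mcpt8 UMIs of the set. Il4 was uneven between the wtIDH1 libraries, with 81.1 CPM (1 UMI, exact Poisson interval 2.05 to 452 CPM) in replicate 1 and 3319 CPM (35 UMIs, exact Poisson interval 2312 to 4617 CPM) in replicate 2, where 1 cell of the 7 with most Il4 lay. Sums over 3 or 4 cells hide the spread between cells. The basophil-set cells of wtIDH1 replicate 2 had 0, 0, 0 and 35 UMIs of Il4. In the same order they had 4, 6, 4 and 46 UMIs of Hdc. Those of wtIDH1 replicate 1 had 5, 22 and 9 UMIs of Hdc.

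A test of the basophil set between genotypes was added after these values were seen. The plan had ruled such a test out for wtIDH1 libraries with so few gated cells. The sums of the set, from 42 and 13 cells of mIDH1 and 3 and 4 cells of wtIDH1 libraries, were fitted in edgeR without a block. At this depth 416 genes passed the filter on low counts, and 9 of them (2.16%) passed the test, 5 higher (1.2%) and 4 lower (0.962%) in mIDH1. The antiviral membrane proteins Ifitm2 and Ifitm3, the chaperones Hsp90aa1 and Hspa1b and the small protein Sh3bgrl3 were higher. Ifitm2 had 2083 and 2800 CPM in the basophil set of mIDH1 replicates 1 and 2, against 487 and 189.7 CPM in wtIDH1 replicates 1 and 2 (log2 fold change 2.87 ± 0.54, adjusted p 0.0164). Hspa1b, which cells make under heat and other stress, had 748 and 2163 CPM in mIDH1 and no UMI in the wtIDH1 cells (adjusted p 0.0164). Fosb, an immediate early gene, was lower, with 1196 and 916 CPM in mIDH1 and 6817 and 4363 CPM in wtIDH1 (-2.32 ± 0.42, adjusted p 0.0164). The other lower genes were Rassf3, the ubiquitin ligase Nedd4 and the predicted gene Gm26802. Without the filter on low counts all 4 lower genes missed the threshold in edgeR (adjusted p 0.235 to 0.638). In DESeq2 Nedd4, Sh3bgrl3 and Rassf3 missed it (adjusted p 0.0678, 0.0885 and 0.260). The part of cell handling in the chaperone and immediate early genes was not tested.

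Genes that mark the set did not pass that test. Hdc (1.31 ± 0.48, adjusted p 0.202), Fcer1g (1.28 ± 0.42, adjusted p 0.148), Il6 (1.43 ± 0.59, adjusted p 0.241) and Gata2 (-0.85 ± 0.39, adjusted p 0.280) missed the threshold, as did Ccl3, Hgf, Csf1 and Il4 (adjusted p 0.767 to 0.990). The genes called rest on 7 wtIDH1 cells. Of the 4 gated cells of wtIDH1 replicate 2, 3 were among the cells with the highest Scrublet doublet scores. No fit between genotypes was run without them. With 1 library left out the fit called 3 to 26 genes, the fewest without mIDH1 replicate 2, when Ifitm2 alone of the 9 remained called. Without wtIDH1 replicate 2, Il4 turned from -0.03 to 4.37 (adjusted p 0.000747).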

How the data were processed

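The libraries, 2 from mIDH1 and 2 from wtIDH1 tumours, hold RNA of single immune cells. The deposited values are raw UMI counts per gene and barcode, 1 matrix per library with 31053 genes. Per the labels' protocols the authors aligned reads with STAR to mm10 and counted them in Cell Ranger 3.1, while the version written in the file headers is 3.0.0. An aggregation to equal depth, which the labels' protocols describe, is not visible in the separate matrices. The step that isolated the immune cells is not given in the sources used here.

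Barcodes with 200 or more genes and at most 10% mitochondrial UMIs were kept, 13569 of 16289. The gate, the gene lists and the genes named were chosen with earlier results of these data known. Neutrophils had 10 or more UMIs of S100a8 and S100a9 and 2 or more of other neutrophil genes, and macrophages 10 or more C1q UMIs. T cells had 3 or more CD3 UMIs and NK cells 2 or more of Ncr1 and Klrb1c. Libraries shared 6 to 25 barcodes per pair, none of them gated. Scrublet (scanpy 1.11.5) gave each cell a doublet score. Its automatic threshold marked 1 to 3 cells per library, so no cell was removed, and removal of the highest scores was an alternative.

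For each class the UMIs of a library were added up. The sums went into edgeR 4.0.16 (R 4.3.3) with the library as a block, its default filter on low counts, trimmed-mean scaling and the quasi-likelihood test, at a Benjamini-Hochberg threshold of 0.05. CPM are UMIs per 1000000 UMIs of the summed cells. The labels do not say whether the libraries of a genotype are separate animals, so p-values measure the spread between libraries, which may be technical. Shares have 95% Wilson intervals and an exact permutation test. The basophil set was also compared between genotypes over the 4 sums, without a block, a test outside the plan and added after the data were seen. A fold against a class without UMIs is a bound from 3 counts over that class.

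Named genes were, per comparison, the 15 highest and 10 lowest past the threshold with 100 CPM or more in the higher population and the same direction in both libraries, up to 6 genes of each list, and a set of 35 given in any case. Predicted genes were counted only. The sets, their members and the other genes compared between them were chosen after their values were seen.

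The fits were tested on simulated data before use. Alternatives covered normalization, the filter on low counts, DESeq2 1.42.0, all 4 libraries, each library left out, the replicate block and the limits of the gate. Upstream windows are from RefSeq (GRCm38.p6). Tables and plots were made in Python 3.11.15 with pandas 2.3.3, numpy 2.4.6, anndata 0.12.19, matplotlib 3.10.9 and scipy 1.17.1.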

Additional observations from a re-analysis of the deposited data

How the results depend on the processing

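The share of gated cells kept its direction in every alternative run, with ratios of mIDH1 over wtIDH1 from 6.51 to 14.6 beside the 7.40 reported, and of 5.36 to 9.45 with 1 library left out. With the replicate number as a block its exact p was 0.5, the smallest that 2 pairs allow, and nothing in the labels pairs the samples. Against all other cells the 512 genes became 325 in DESeq2 (308 of them shared), 1003 with all 4 libraries (481 shared) and 268 in the mast set alone (142 shared). With the cells just outside the gate left out of the other cells all 512 were called. Without the replicate block, here the library, they became 694. The fit over all 4 libraries gave 473, 546, 600 and 748 genes without mIDH1 replicates 1 and 2 and wtIDH1 replicates 1 and 2. Against neutrophils the 843 genes became 421 in DESeq2 and 554 with at most 5% mitochondrial UMIs, 909 without the replicate block, 804 with all 4 libraries and 606 to 816 in that fit with 1 library left out. Between genotypes the 9 genes of the basophil set became 40 without the filter on low counts, 19 with the replicate block, and 3 to 26 with 1 library left out. The cause of these shifts was not tested. Over all named genes and alternatives, 1581 values kept their direction and side of the threshold, 57 came to pass it, 67 came to miss it and 54 turned round.

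Of the 54 values that turned round, 17 were those of the mast set alone. Its median over all genes was -2.29 against all other cells and -0.93 against neutrophils, and Csf2rb, Il18r1 and Osm lay above the first median, and Csf2rb2, Il18r1 and Fcer1g above the second. There, against all other cells, log2 fold changes were -0.79 for Csf2rb, -1.57 for Il18r1, -3.09 for Ccl3, -2.38 for Ccl4, -2.32 for Csf1, -0.96 for Osm and -13.44 for Cxcr4. Against neutrophils they were -2.48 for Csf2rb, -0.52 for Csf2rb2, -0.25 for Il18r1, -1.46 for Hdc, -5.14 for Ccl3, -4.46 for Ccl4, -4.53 for Csf1, -0.71 for Fcer1g, -2.88 for Osm and -11.86 for Cxcr4. Mcpt2 turned to -9.67 in cells with Mcpt8 and no mast cell gene and to -9.65 in the basophil set, where it had no UMI. The other reversals were of genes that had not passed the test. Fcer1g against all other cells was -0.58 without mIDH1 replicate 1 and -0.27 without mIDH1 replicate 2.

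Against neutrophils Fcer1g ranged over -0.36 (no filter), -0.13 (all 4 libraries), -0.041 (no replicate block), -0.33 and -0.30 (without mIDH1 replicate 1 or 2), -0.12 (without wtIDH1 replicate 2), -0.060 (gate sum of 10), -0.068 (C1q sum of 0), -0.0094 (Scrublet), -0.17 (Mcpt8 only) and -0.25 (basophil set). Cxcr4 against neutrophils ranged over -0.34 (no filter), -0.053 (DESeq2), -0.51 (all 4 libraries), -1.42 and -0.30 (without mIDH1 replicate 1 or 2), -0.12 and -0.42 (without wtIDH1 replicate 1 or 2), and -0.025 and -0.66 (gate sums of 5 and 10). Between genotypes Il4 was 0.82 without the filter and 0.35 with the replicate block, Hgf 0.71 and Csf1 0.64 without the filter. With 1 library left out Il4 ranged from -0.83 to 4.37, Hgf from -0.43 to 0.24 and Csf1 from -0.40 to 0.56, the lone library of a genotype being assumed to vary like the others. Ccl4 was -0.021 with no filter and -0.0037 at a gate sum of 10, and Csf1 -0.050 with no filter. The 46 and 25 gated cells of the mIDH1 libraries limit the genes that can be tested, and the 4 and 4 of the wtIDH1 libraries leave 416 genes testable between genotypes.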
